A study of Rattus norvegicus with 63 samples.

Results

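Transcript levels in the nucleus accumbens of rats that self-administered cocaine for a long or a short session each day were compared on 8 oligonucleotide arrays, all those labelled as accumbens with long or short access among the 63 arrays of a study of 6 brain regions. The 4 long access arrays came from rats that could take cocaine for 6 h a day, by intravenous injections of 0.25 mg each, and the 4 short access arrays from rats that could do so for 1 h. A further 4 accumbens arrays came from drug-naive rats with 0 h, called no access here. The design text gives 8 rats for each access group, and nothing in it states whether an array holds the RNA of 1 rat or of several, or which rats an array stands for, so a p-value here measures the spread between arrays, part of which may be technical. The arrays carry 1263 probe sets for neural genes beside their controls, and the 738 with a mean signal of at least 100 over the 12 accumbens arrays, standing for 453 named genes, were tested. Signals are given on a log2 scale after each array was brought to the same trimmed mean, so a difference of 1 is a 2-fold change in signal.

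The nucleus accumbens is the ventral part of the striatum. Most of its neurons are GABAergic medium spiny neurons, which carry either the D1 dopamine receptor with the peptides dynorphin and substance P or the D2 dopamine receptor with the adenosine receptor Adora2a and the peptide enkephalin. Cocaine blocks the dopamine transporter and raises extracellular dopamine there, and rats given long daily sessions are known to escalate their intake whereas rats given short sessions keep it stable. The comparison asks which transcripts differ between these 2 histories of intake.

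The accumbens arrays carried the transcripts of medium spiny neurons. The lowest accumbens value lay above the highest of the 51 arrays of the other 5 regions for Drd2, at 9.39 against 8.48, for Adora2a, at 10.31 against 8.93, for the dynorphin precursor Pdyn, at 9.60 against 9.14, and for Penk, the enkephalin precursor, at 11.84 against 11.37. Tac1, the substance P precursor, overlapped the other regions, with a lowest accumbens value of 10.02 against a highest value elsewhere of 10.34. Of the 12 arrays, 3 stood apart from the rest. Long access arrays 2 and 4 had scores of 6.52 and 8.05 on the first principal component of the 12 arrays, which held 22.4% of the variance, and the other 10 arrays lay between -3.14 and 0.57. Short access array 3 had a score of 7.59 on the third component, with 13.4% of the variance, and low signals for a set of genes given below. Correlations of log2 signal over the tested probe sets were 0.959 to 0.982 among long access arrays, 0.966 to 0.986 among short access arrays and 0.953 to 0.984 between a long and a short access array.

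The difference between the 3' and 5' actin controls, which grows as RNA is degraded or copied less fully, averaged 0.12 ± 0.04 on the no access arrays, 0.19 ± 0.02 on the short and 0.27 ± 0.05 on the long access arrays (log2, SD, n = 4 arrays each). Its exact permutation p for long against short access was 0.0571, or 0.257 adjusted over 9 measures of the arrays, where 4 arrays against 4 can give no less than 0.0286. The summed signal of 7 oligodendrocyte markers was 25377, 29635, 25349 and 31958 on long access arrays 1 to 4 and 26027, 25230, 20714 and 24015 on short access arrays 1 to 4 (exact permutation p = 0.114). The highest sums stood on long access arrays 2 and 4 and the lowest on short access array 3, and long access arrays 1 and 3 lay within the short access range. The same Gapdh control difference was 0.32 ± 0.04 with long and 0.36 ± 0.03 with short access (SD, n = 4 each, exact permutation p = 0.229). The part of RNA integrity and of tissue makeup in the differences below was not tested. In a fit with the actin measure as a covariate, 28 probe sets had an unadjusted limma p under 0.05 against 71 without it. That measure rose with access on average, so the fit cannot tell RNA integrity from access. In dissected tissue fewer cells of a type and less RNA per cell cannot be told apart.

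**Figure D1:**
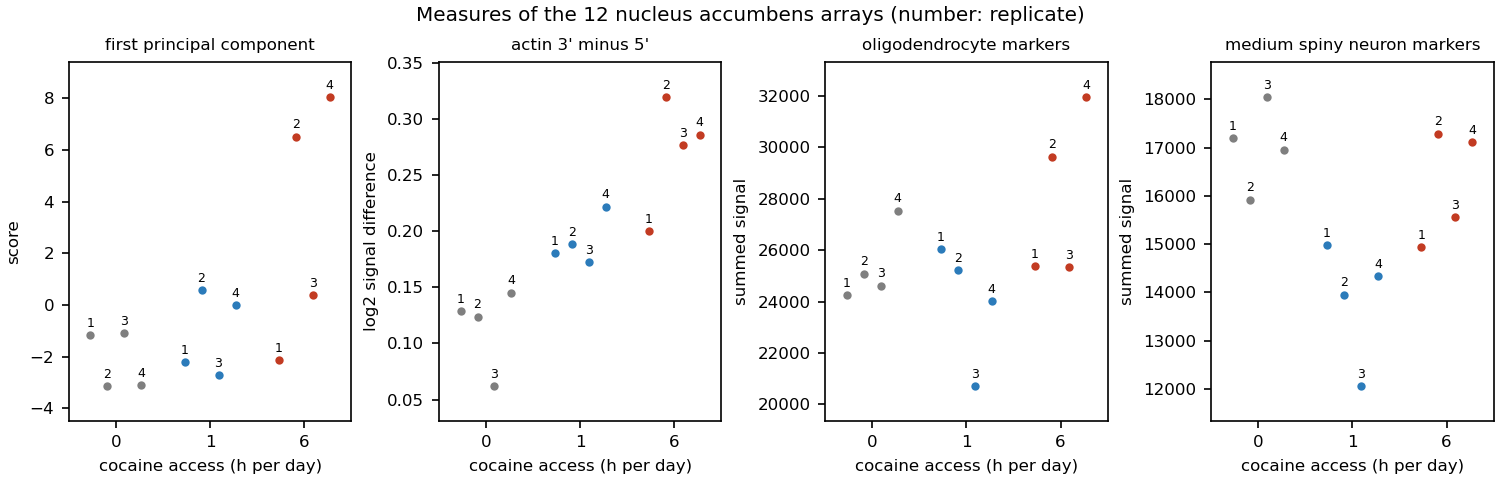
Measures of each of the 12 accumbens arrays by daily access in h (grey 0 h, blue 1 h, red 6 h; numbers are replicates): the score on the first principal component, the actin 3' minus 5' difference in log2 signal, and the summed signals of the oligodendrocyte and medium spiny neuron markers. Long access arrays 2 and 4 lie apart on the first component, at 6.52 and 8.05, and short access array 3 has the lowest sum of both marker lists. Its low medium spiny neuron sum holds Tac1 at 10.02 (log2), against 11.91 to 12.16 on the other short access arrays.

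No transcript passed the test for a difference between long and short access. At an adjusted p under 0.05 (limma, Benjamini-Hochberg over 738 probe sets) 0 probe sets were called, 0%. At an unadjusted p under 0.05 there were 71 probe sets, 9.62% of those tested, of which 35 (4.74%) were higher and 36 (4.88%) lower with long access. The values of the long and short access arrays did not overlap for 13 probe sets that were higher with long access, 1.76%, and for 15 that were lower, 2.03%, together 28 or 3.79%. Above 0 were 355 probe sets (48.1%) and 217 of 453 genes (47.9%), with a median of -0.01 over genes. The scaling of every array to the same trimmed mean largely sets this balance. The median size of a difference was 0.14, and 12 probe sets differed by more than 1.5-fold and 1 by more than 2-fold.

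The absence of calls is bounded by the precision of 4 arrays a group. The standard error of a difference had a median of 0.15 and ran between 0.06 and 0.62 (log2). For 703 of the 738 probe sets (95.3%) the 95% interval of the difference lay inside a 2-fold change in either direction, and for 510 (69.1%) inside a 1.5-fold change. For most transcripts on this array a 2-fold difference thus lay outside the interval, while smaller differences could be present and go uncalled. The lowest adjusted p was 0.0594, for Gnb1, and the next was 0.361.

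**Figure D2:**
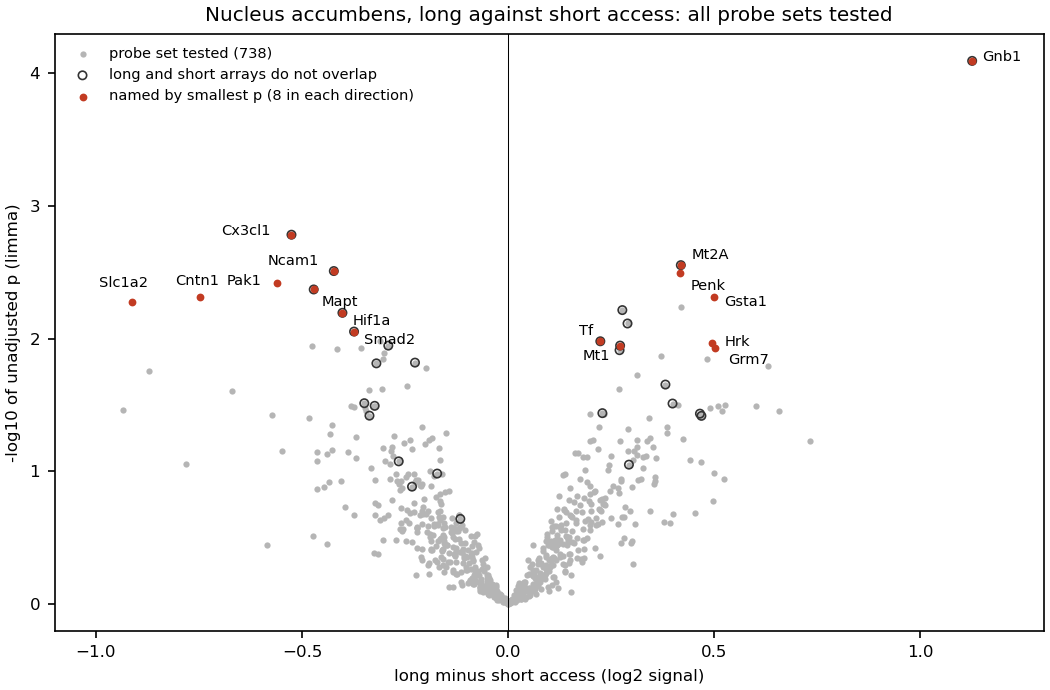
Difference between long and short access in log2 signal (horizontal) against the -log10 of the unadjusted limma p (vertical) for the 738 probe sets tested (grey), with open circles where the 4 long and the 4 short access arrays do not overlap and red points for the 8 genes of smallest p in each direction. Gnb1, at 1.13, lies alone at the top right, and no probe set reached an adjusted p under 0.05.

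The genes described first are the 8 with the smallest p in each direction. They were picked for that p, so their direction and their separation describe these arrays and are no further evidence. Gnb1 encodes a beta subunit of heterotrimeric G proteins, which relays signals from receptors such as those for dopamine, opioids and adenosine. Its probe set AF022083_s_at had log2 signals of 7.81, 8.54, 7.91 and 7.82 on the long access arrays and 6.42, 7.30, 6.81 and 7.04 on the short access arrays. Every long access array lay above every short access array, and the means were 8.02 ± 0.35 and 6.89 ± 0.37 (SD, n = 4 each). The signal was 2.18-fold higher with long access, a difference of 1.13 ± 0.21 (log2, SE, 95% interval 0.68 to 1.57, limma adjusted p = 0.0594). It passed the threshold in 4 of 26 alternative settings, with limma adjusted p-values between 0.00177 and 0.934. The no access arrays, at 7.62, 7.91, 8.05 and 7.82, lay level with long access, so that short access was the group that stood apart, by -0.96 against no access (limma adjusted p = 0.118). The other 4 probe sets of Gnb1 had brighter signals and smaller differences, at 0.42 ± 0.13, 0.31 ± 0.16, 0.01 ± 0.25 and -0.06 ± 0.27. Only the first probe set separated the 2 groups, and its suffix marks probes that can match more than 1 transcript.

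Metallothioneins, small proteins that bind zinc and copper and are made in glia under metal load, oxidative stress and glucocorticoids, were represented by Mt2A and Mt1. Mt2A had log2 signals of 10.40, 10.67, 10.40 and 10.89 with long access and 10.23, 10.34, 10.02 and 10.09 with short access. Mt1 had 10.55, 10.56, 10.56 and 10.58 with long access and 10.11, 10.41, 10.17 and 10.48 with short access. Neither gene's groups overlapped, and the 4 long access arrays were nearly level for Mt1. The differences were 0.42 ± 0.12 for Mt2A, 1.34-fold, and 0.27 ± 0.09 for Mt1, 1.21-fold (log2, SE, limma adjusted p = 0.361 for each). Without cocaine Mt2A was at 10.76 on average, above both access groups, and Mt1 at 10.33, close to short access. The promoters of this pair are shown because the family is known for its metal response elements, whose core can be written TGCGCNC or TGCACNC. The sequences are RefSeq promoters on the GRCr8 build, 250 bases before to 50 after the start of the gene, read 5' to 3' on the strand of the gene (minus for both), at chr19:10832926-10833225 for Mt1 and chr19:10838659-10838958 for Mt2A. Capitals mark every match to either core on either strand, and no match overlaps another.

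Mt1: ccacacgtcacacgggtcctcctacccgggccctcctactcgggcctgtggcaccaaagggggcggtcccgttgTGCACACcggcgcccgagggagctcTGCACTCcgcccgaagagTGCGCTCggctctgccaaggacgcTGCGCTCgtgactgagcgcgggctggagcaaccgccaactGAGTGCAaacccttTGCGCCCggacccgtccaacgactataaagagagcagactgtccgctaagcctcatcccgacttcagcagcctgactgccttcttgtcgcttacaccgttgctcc

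Mt2A: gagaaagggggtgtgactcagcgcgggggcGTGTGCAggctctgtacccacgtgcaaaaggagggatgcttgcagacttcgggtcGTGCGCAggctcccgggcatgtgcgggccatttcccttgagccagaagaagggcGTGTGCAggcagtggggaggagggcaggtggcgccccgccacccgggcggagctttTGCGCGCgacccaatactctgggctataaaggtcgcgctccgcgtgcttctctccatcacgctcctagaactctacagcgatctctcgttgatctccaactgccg

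The Mt1 window holds 6 matches, 3 of each core, and the Mt2A window 4, with 2 of each. Of 33469 rat promoters of the same length 24.23% hold at least 1 match and 0.4392% at least 4. These matches describe the letters of the windows and carry no measurement of binding.

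Penk encodes proenkephalin, the opioid peptide precursor of the D2 class of medium spiny neurons. Its log2 signals were 12.004, 12.56, 12.22 and 12.53 with long access and 11.84, 11.85, 12.07 and 11.88 with short access. Long access arrays 2, 3 and 4 lay above all short access arrays, and long access array 1 lay below short access array 3. The difference was 0.42 ± 0.12, 1.33-fold (log2, SE, 95% interval 0.16 to 0.67, limma adjusted p = 0.361), with no access in between at 12.09.

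Tf encodes transferrin, an iron carrier that oligodendrocytes make in the brain. Its log2 signals were 10.86, 11.01, 10.87 and 11.01 with long access and 10.69, 10.72, 10.80 and 10.63 with short access, without overlap, a difference of 0.22 ± 0.08 (SE). The other 2 probe sets of Tf both differed by 0.27. Their highest values stood on long access arrays 2 and 4, the arrays with the highest oligodendrocyte sums, and the part of those cells in the difference was not tested. Gsta1, a glutathione transferase of a multigene family whose members its probes can share, had 10.35, 11.04, 10.66 and 11.14 with long access and 10.44, 10.35, 10.29 and 10.11 with short access. That is a difference of 0.50 ± 0.15, against 0.06 for its other probe set. Hrk, which encodes a BH3-only protein that promotes cell death, and Grm7, the presynaptic metabotropic glutamate receptor 7, differed by 0.49 ± 0.17 and 0.50 ± 0.17. Their other probe sets did not share this, at -0.15 and -0.11 for Hrk and at -0.13 and 0.03 for Grm7. Long access arrays 2 and 4 both lay above arrays 1 and 3 in 6 of the 8 genes of this group. Among the 8 genes lower with long access, described next, both lay below arrays 1 and 3 in 3.

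Among transcripts lower with long access, Cx3cl1 had the smallest p. It encodes fractalkine, a chemokine made by neurons whose receptor is carried by microglia. Its log2 signals were 11.59, 12.02, 11.42 and 11.94 with long access and 12.47, 12.11, 12.41 and 12.07 with short access. The groups did not overlap but came close to each other, and the difference was -0.53 ± 0.14, or 1.44-fold lower (log2, SE, 95% interval -0.82 to -0.24, limma adjusted p = 0.361). The other 3 probe sets of Cx3cl1 gave -0.18, 0.13 and 0.01.

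Ncam1, the neural cell adhesion molecule, had 9.54, 9.95, 9.97 and 9.68 with long access and 10.26, 10.05, 10.41 and 10.12 with short access, a difference of -0.42 ± 0.12 (log2, SE) with no overlap. Its other 2 probe sets were also lower, by -0.43 ± 0.26 and -0.19 ± 0.18. Cntn1, a contactin that anchors axonal adhesion complexes, had 8.90, 8.33, 9.20 and 8.53 with long access and 8.99, 9.80, 9.53 and 9.62 with short access, a difference of -0.75 ± 0.22 with 1 short access array inside the long access range. Pak1, a kinase that acts on the actin skeleton of dendritic spines, differed by -0.56 ± 0.16 and on its other probe set by -0.44 ± 0.23. Mapt, the microtubule protein tau, had 11.64, 10.85, 11.50 and 11.04 with long access and 11.67, 11.83, 11.68 and 11.75 with short access. Its groups did not overlap, yet long access arrays 1 and 3 were almost level with the short access arrays while arrays 2 and 4 lay well below. The difference of -0.47 ± 0.14 was not shared by the other 2 probe sets of Mapt, at 0.19 and -0.03.

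Slc1a2 encodes GLT-1, the astrocyte transporter that clears most synaptic glutamate. Its log2 signals were 7.33, 7.65, 6.98 and 7.15 with long access and 8.87, 7.63, 8.39 and 7.89 with short access. Short access arrays 1 and 3 were high, and short access array 2 was level with the highest long access array. The difference was -0.91 ± 0.28, or 1.88-fold lower (log2, SE, 95% interval -1.51 to -0.32, limma adjusted p = 0.361), and the other probe set gave -0.43 ± 0.20. The no access arrays, at 8.63, 7.55, 8.53 and 7.96, spread as widely as the short access arrays. Hif1a, the oxygen-regulated transcription factor, had 8.07, 8.24, 8.21 and 8.20 with long access and 8.65, 8.66, 8.51 and 8.52 with short access. Both groups were tight and did not overlap, with a difference of -0.40 ± 0.13. Smad2, which carries signals from TGF-beta and activin receptors to the nucleus, had 7.37, 7.57, 7.24 and 7.42 with long access and 7.77, 7.79, 7.92 and 7.61 with short access, a difference of -0.37 ± 0.12 without overlap. Its second probe set gave -0.14.

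**Figure D3:**
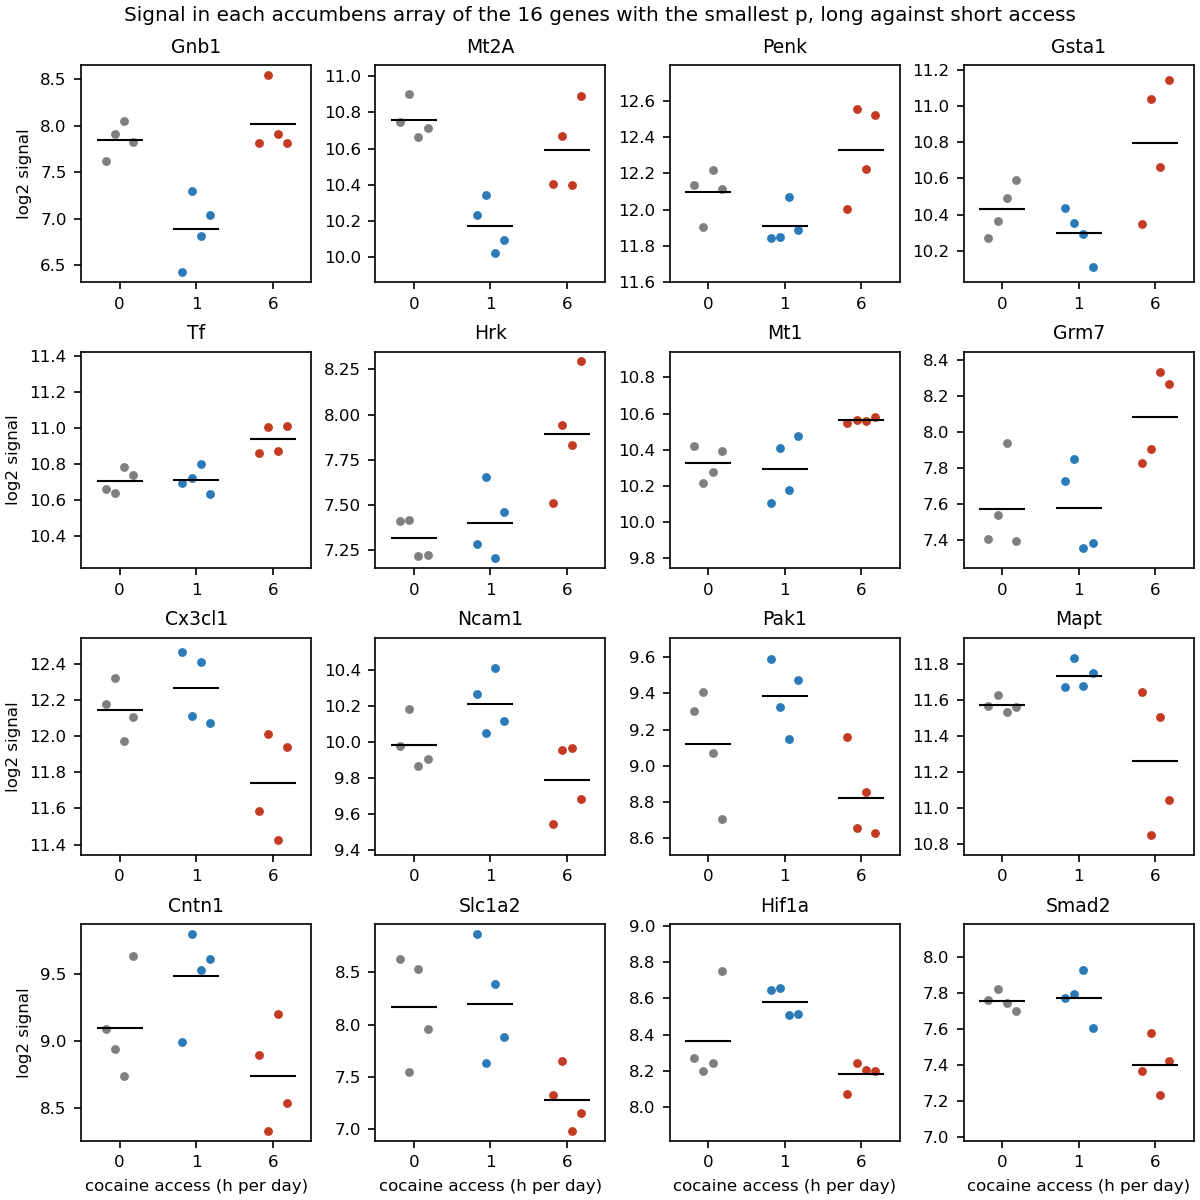
Log2 signal in each accumbens array (points) and the group mean (line) of the 16 genes with the smallest p for long against short access, by daily access in h; the upper 2 rows are higher and the lower 2 rows lower with long access. For Gnb1 and Mt2A the 0 h mean lies nearer the 6 h mean than the 1 h mean, and for the 8 lower genes it lies between them.

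The no access arrays place these differences within the series of 0, 1 and 6 h. Comparisons of either access group with no access share arrays with the comparison above, so the values only stand side by side. Of the 8 genes higher with long access, the no access mean lay between the other means for 4 and nearer to short access for 6. Mt2A lay at 10.76, 10.17 and 10.59 with no, short and long access. Hrk lay at 7.32, 7.40 and 7.89, and Grm7 at 7.57, 7.58 and 8.08. Of the 8 lower genes the no access mean lay between the others for 8, nearer to short access for 5. Picking genes for their long against short p favours a no access mean in between, and the share over all probe sets was not counted. Slc1a2 lay at 8.17, 8.19 and 7.28 with no, short and long access, and Smad2 at 7.75, 7.77 and 7.40. Against no access, 0 of 738 probe sets were called for either access group (limma), with 119 (16.1%) at an unadjusted p under 0.05 for long access and 75 (10.2%) for short access.

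No gene that defines medium spiny neurons passed the test between long and short access. Of 10 such markers tested, 7 lay above 0 with a median of 0.09 (1 probe set per gene, that of the highest mean), and 5 of 10 with a median of 0.0034 without long access arrays 2 and 4. With short access array 3 left out instead, 8 of these markers lay above 0 at a median of 0.07. Penk, described above, had the smallest p of them, at a difference of 0.42 ± 0.12 (log2, SE). Drd2 differed by 0.16 ± 0.16, Adora2a by -0.03 ± 0.10 and Pdyn by 0.10 ± 0.13 (log2, SE), so their 95% intervals of -0.19 to 0.51, -0.24 to 0.19 and -0.19 to 0.38 lie inside a 1.5-fold change, and the sign of each turns under at least 1 alternative setting. Drd1, the D1 receptor, had 9.13, 9.08, 9.21 and 9.19 with long access and 8.96, 9.004, 7.84 and 8.93 with short access on its probe set of smallest p. The groups did not overlap, but most of the difference of 0.47 ± 0.21 came from short access array 3, without which it was 0.19. The other probe sets of Drd1 gave 0.09 and -0.02. Tac1 behaved alike: on its brighter probe set short access array 3 stood at 10.02 while the other short access arrays lay between 11.91 and 12.16 and the long access arrays between 11.90 and 12.17. That probe set differed by 0.50 ± 0.34, and the other by 0.15 ± 0.09.

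The summed signal of the medium spiny neuron markers was 14935, 17286, 15564 and 17109 on the long access arrays and 14975, 13957, 12062 and 14344 on the short access arrays. Long access array 1 lay below the highest short access array, and the exact permutation p was 0.0571, or 0.257 adjusted over 9 measures. Linear signals were summed, so Penk and Tac1, the brightest of these markers, weighed most. Penk was named for its small p, and the low sum of short access array 3 held Tac1 at 10.02 (log2). The no access arrays had a mean sum of 17029, above the means of both access groups. Short access array 3 was also low for Scn2a, Kcna1, Mag and Mbp, at 8.48, 7.11, 9.82 and 13.06. Without that array the differences of these 4 genes were 0.25, 0.37, 0.13 and 0.14, against 0.60, 0.66, 0.42 and 0.29 with it.

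Among genes for the receptors, enzymes and transporters of dopamine, serotonin and noradrenaline, 8 of 14 tested lay above 0 (median 0.03), and 5 of 14 (median -0.06) without long access arrays 2 and 4. Leaving out short access array 3 gave 8 of 14 of these genes (median 0.02). Htr2c, the serotonin 2C receptor, had the smallest p of them, with 8.55, 8.32, 8.64 and 8.00 with long access and 8.84, 8.63, 9.08 and 8.63 with short access, a difference of -0.42 ± 0.14 (log2, SE) with overlap at a single array. Its other probe set gave -0.06. Drd5, a dopamine receptor of the D1 class, was lower on every long access array, at 7.53, 7.51, 7.66 and 7.78, than on the short access arrays, at 7.81, 7.82, 7.89 and 7.89, a difference of -0.23 ± 0.15.

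Glutamate receptor genes were divided, with 9 of 19 above 0 (median -0.01), or 10 of 19 (median 0.06) without long access arrays 2 and 4. Leaving out short access array 3 gave 7 of 19 (median -0.09). For Gria1, the GluA1 subunit of AMPA receptors, 3 probe sets gave -0.30 ± 0.11, -0.35 ± 0.15 and -0.26 ± 0.16, and the first had 10.13, 9.97, 10.21 and 9.73 with long access and 10.19, 10.23, 10.43 and 10.39 with short access. Long access arrays 2 and 4 were lower than arrays 1 and 3 on all 3 probe sets, and array 3 of long access overlapped the short access range on the first. Gria4, another AMPA subunit, differed by 0.38 ± 0.18 and the NMDA subunit Grin2d by 0.31 ± 0.16. Among GABA genes 8 of 17 lay above 0 (median -0.01), with Gabbr1, a GABA-B receptor subunit, at -0.25 ± 0.10 on 1 probe set and between -0.28 and 0.15 on its other 4. Acetylcholine genes lay above 0 in 2 of 6 cases (median -0.19), led by the muscarinic receptor Chrm5 at -0.43 ± 0.19. Slc18a3, the vesicular acetylcholine transporter of cholinergic interneurons, was lower on every long access array, at 8.41, 8.38, 8.33 and 8.32 against 8.52, 8.42, 8.53 and 8.67 with short access, but by only -0.17 ± 0.10.

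Neuropeptide genes other than those of medium spiny neurons lay above 0 in 4 of 9 cases (median 0.00), and in 6 of 9 (median 0.17) without long access arrays 2 and 4. The count was 3 of 9 (median -0.03) without short access array 3. Sst, the somatostatin of a class of interneurons, had 12.72, 12.22, 12.55 and 12.11 with long access and 12.74, 12.73, 12.95 and 12.62 with short access, a difference of -0.36 ± 0.12 (log2, SE). Again arrays 2 and 4 were the lower long access arrays, and its other probe set gave 0.08. Nmu, neuromedin U, differed by 0.34 ± 0.17. Peptide, adenosine and cannabinoid receptor genes lay above 0 in 4 of 9 cases (median -0.06).

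Genes of the activity-induced list, most of which neurons switch on after firing, lay above 0 in 6 of 10 cases (median 0.10). They did so in 5 of 10 (median -0.0077) without long access arrays 2 and 4. The count stayed at 6 of 10 (median 0.10) without short access array 3. Nr4a1, an early nuclear receptor, had 9.37, 9.59, 9.25 and 9.48 with long access and 9.25, 9.18, 9.15 and 9.19 with short access. The lowest long access value lay just above the highest short access value, and the difference was 0.23 ± 0.10 (log2, SE), with 0.27 ± 0.16 on its second probe set. Nptx2, a secreted pentraxin of excitatory synapses, differed by 0.52 ± 0.22, though by -0.16 on its other probe set. The transcription factor Creb1 differed by -0.48 ± 0.21, and Fos by 0.13 and Egr1 by between -0.04 and 0.19.

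Downstream of receptors, 19 of 30 genes that signal through calcium, cyclic AMP or protein kinase C lay above 0 (median 0.03). The count was 24 (median 0.06) without short access array 3 and 17 (median 0.02) without long access arrays 2 and 4. Prkcb, the beta isoform of protein kinase C, had 10.21, 10.42, 10.17 and 10.53 with long access and 10.11, 10.03, 10.02 and 10.09 with short access, without overlap. Its 3 probe sets gave 0.27 ± 0.09, 0.37 ± 0.13 and 0.12 ± 0.08 (log2, SE). On the second of them short access array 3 was low, at 11.07, and without it the difference was 0.21. Without long access arrays 2 and 4 the first gave 0.13. Itpkb, a kinase of inositol trisphosphate, had 7.34, 7.20, 6.996 and 7.13 with long access and 6.77, 6.86, 6.49 and 6.94 with short access, a difference of 0.40 ± 0.17 without overlap. Kinase cascade genes lay above 0 in 7 of 9 cases (median 0.06), and in 3 of 9 (median -0.06) without long access arrays 2 and 4. Leaving out short access array 3 kept 7 of these 9 genes above 0 (median 0.04). Pik3r1, the regulatory subunit of phosphoinositide 3-kinase, had the largest difference of them, 0.73 ± 0.36, and it rested on long access arrays 2 and 4, at 7.78 and 7.54, while arrays 1 and 3 stood at 6.16 and 6.36 and the short access arrays between 5.97 and 6.39.

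Synaptic vesicle genes lay above 0 in 8 of 17 cases (median 0.00). Snap25, a SNARE protein of vesicle fusion, differed by -0.31 ± 0.10 on 1 probe set (log2, SE) and between -0.01 and 0.13 on 3 others. Cytoskeletal genes lay above 0 in 4 of 12 cases (median -0.12) and adhesion genes in 5 of 15 (median -0.12). The growth cone protein Gap43, at -0.28 ± 0.15, and the neurofilament Nefl, at -0.18 ± 0.09, showed lower values on long access arrays 2 and 4 than on arrays 1 and 3. For Gap43 these were 11.76, 11.08, 11.67 and 11.11 with long access and 11.61, 11.78, 11.64 and 11.70 with short access. Without long access arrays 2 and 4 the medians of the cytoskeletal and adhesion lists were 0.08 and -0.07, and 8 of 12 and 6 of 15 members lay above 0. With short access array 3 left out instead, the medians were -0.08 and -0.13, with 5 of 12 and 4 of 15 members above 0.

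Potassium channel genes lay above 0 in 12 of 21 cases (median 0.01), and sodium, calcium and cation channel genes in 9 of 24 (median -0.06). Without short access array 3 the latter count was 8 of 24 (median -0.06). It was 12 of 24 (median -0.01) without long access arrays 2 and 4. Kcnn1, a small-conductance calcium-activated potassium channel, differed by -0.57 ± 0.25 (log2, SE), with short access array 1 alone at 8.17 above the other short access arrays at 7.11 to 7.35. Cacna1b, the N-type calcium channel of nerve endings, differed by -0.30 ± 0.11 and -0.13 on its 2 probe sets, and the calcium channel subunit Cacnb2 by -0.38 ± 0.16.

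Neurotrophic and growth factor genes lay above 0 in 4 of 22 cases, by small differences with a median of -0.05 and a range of -0.25 to 0.19. Without short access array 3 the count was 9 of 22 at a median of -0.05. With long access arrays 2 and 4 left out instead, it was 6 of 22 at a median of -0.12. Stress and apoptosis genes lay above 0 in 10 of 19 cases (median 0.02). Bcl2, which protects cells from apoptosis, had 7.37, 7.73, 7.68 and 7.89 with long access and 8.01, 7.95, 8.09 and 7.92 with short access, a difference of -0.32 ± 0.14 (log2, SE) without overlap. Sod1, the cytosolic superoxide dismutase, had 11.10, 10.87, 11.20 and 11.00 with long access and 11.39, 11.35, 11.33 and 11.49 with short access, and its 3 probe sets gave -0.35 ± 0.15, -0.21 ± 0.15 and -0.23 ± 0.17. The no access arrays of Sod1 spanned both groups, between 10.78 and 11.48. Casp1, the protease that activates interleukin 1 beta, differed by 0.53 ± 0.22. Nuclear receptor genes lay above 0 in 0 of 5 cases (median -0.09), and in 2 of 5 (median -0.0043) without short access array 3. Without long access arrays 2 and 4 the count stayed at 0 of 5 (median -0.24). With all arrays, Thra and Rarb of this list were nearly level, at -0.00048 and -0.00045. The other probe sets of Thra gave 0.27 and 0.13.

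All 7 oligodendrocyte markers tested lay above 0, with a median of 0.18, against 47.9% of all genes. Enpp2, a secreted enzyme of oligodendrocytes and choroid plexus, had 9.66, 9.94, 9.75 and 9.90 with long access and 9.30, 9.81, 9.29 and 9.60 with short access, a difference of 0.31 ± 0.12 (log2, SE). Mbp, a major protein of myelin, differed by 0.29 ± 0.13. The count and the median were lower with the arrays that stood apart left out. Without short access array 3 the count was 6 of 7 at a median of 0.15, and without long access arrays 2 and 4 it was 5 of 7 at a median of 0.01. Astrocyte markers lay above 0 in 4 of 9 cases (median -0.05). The count was 3 of 9 (median -0.01) without short access array 3. With long access arrays 2 and 4 left out instead, it was 5 of 9 (median 0.03). Slc1a2 was lower on both of its probe sets, at -0.91 and -0.43, while those of the second glutamate transporter, Slc1a3, differed in sign. Slc1a3 gave -0.35 ± 0.15, 0.22 ± 0.10 and -0.04 ± 0.11. Microglial and immune genes lay above 0 in 3 of 5 cases (median 0.01), with Cx3cl1, which neurons make, at the low end and the fructose transporter Slc2a5 at 0.47 ± 0.25.

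Genes of neighbouring tissue were measured as well. The 4 choroid plexus genes tested also stand in other lists. Enpp2 is among the oligodendrocyte markers, Htr2c among the monoamine genes, and Igf2 and Igfbp2 among the growth factor genes. Markers of choroid plexus lay above 0 in 1 of 4 cases (median -0.17), cortical and amygdalar markers in 3 of 8 (median -0.06), septal, hypothalamic and midbrain markers in 0 of 3 (median -0.14) and vessel markers in 2 of 2 (median 0.02). Without long access arrays 2 and 4 the choroid plexus count was 3 of 4 (median 0.17). It was 1 of 4 (median -0.32) without short access array 3. For cortical and amygdalar markers the count was 4 of 8 (median 0.02) without short access array 3. It was 3 of 8 (median -0.05) without long access arrays 2 and 4. For septal, hypothalamic and midbrain markers the same 2 settings gave 0 of 3 (median -0.05) and 1 of 3 (median -0.01). The summed signals overlapped between long and short access, at 2241 to 3023 against 2089 to 3607 for choroid plexus and 5100 to 5371 against 4671 to 6052 for cortex and amygdala.

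**Figure D4:**
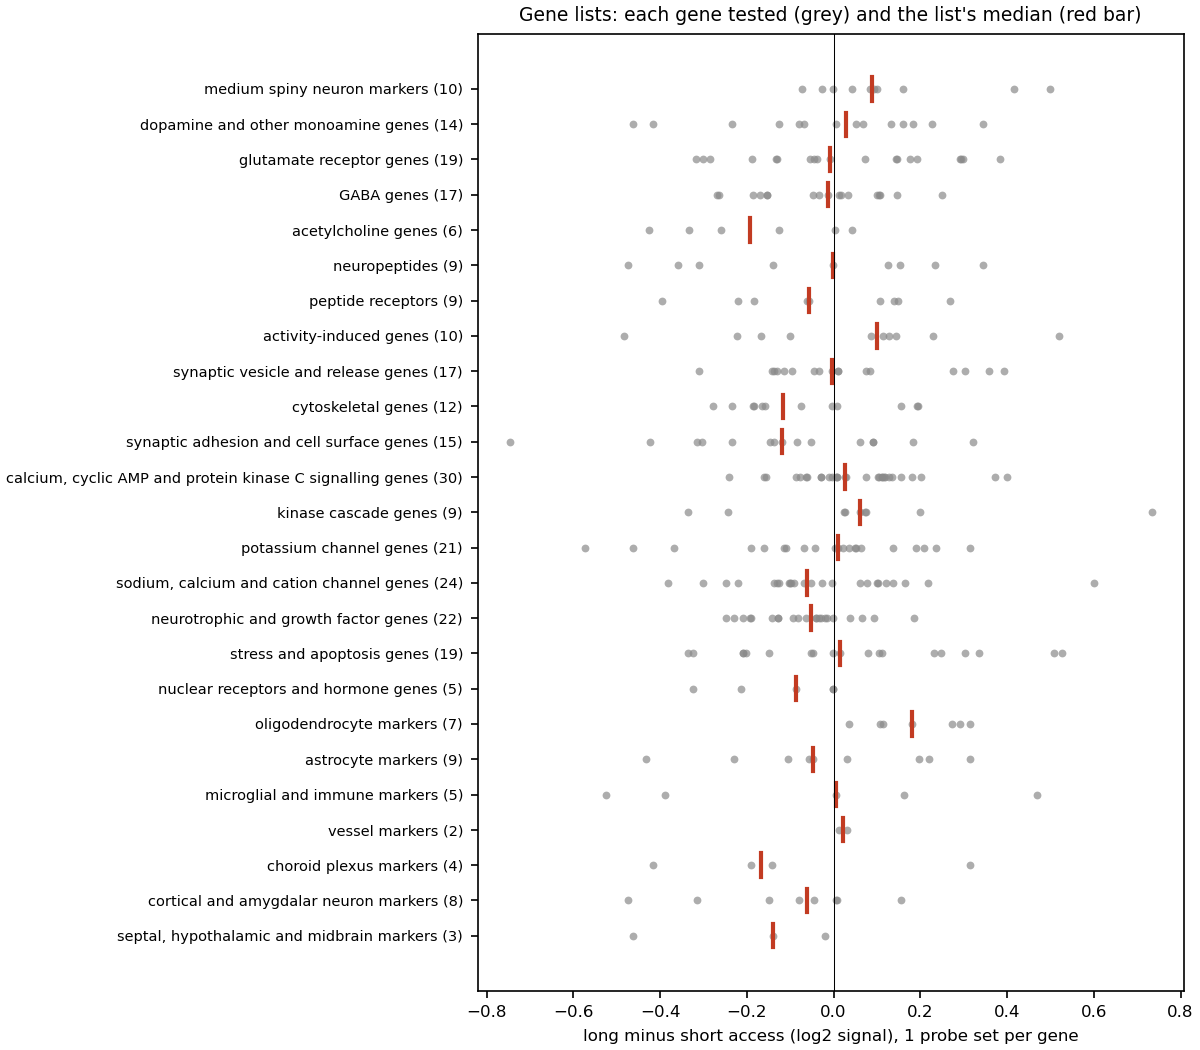
Difference between long and short access in log2 signal for each gene tested of 25 lists (grey points, 1 probe set per gene, number of genes in brackets) and the median of each list (red bar). Medians lie between -0.19 and 0.18, and most lists spread to both sides of 0.

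The accumbens difference was then set against the mean of the same difference in the other 5 regions. In this test 0 of 858 probe sets were called (limma, 0%), with 42 (4.9%) at an unadjusted p under 0.05. The smallest p belonged to Mapt, with -0.47 in the accumbens and 0.01 on average elsewhere, a difference of -0.48 ± 0.16 (log2, SE, limma adjusted p = 0.924). Next came the adrenergic receptor Adra1b at -0.56 ± 0.19, Pkia, an inhibitor of protein kinase A, at -0.60 ± 0.21, Smad2 at -0.46 ± 0.17 and Cacnb2 at -0.44 ± 0.16, each with the same adjusted p. Pkia had 8.34, 7.60, 8.04 and 7.66 with long access and 8.36, 8.53, 8.39 and 8.26 with short access in the accumbens. Gnb1 on its first probe set was higher with long access in each of the other 5 regions too, by 0.26 to 0.87, and the accumbens exceeded their mean by 0.55 ± 0.23 (limma adjusted p = 0.924). Nothing measured here was therefore shown to be particular to the accumbens.

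The lateral hypothalamus, fitted in the same way with 4 arrays a group, had 64 of 718 probe sets called between long and short access (8.91%), against 0% in the accumbens. Of these, 63 were tested in the accumbens. There, 33 (52.4%) had the direction of the lateral hypothalamus, against 341 of 665 (51.3%) of all probe sets tested in both, and 4 (6.35%) had an unadjusted p under 0.05, against 9.62% of all probe sets tested in the accumbens. Of those 4, only Scn2a kept its direction, at 0.66 in the lateral hypothalamus and 0.60 in the accumbens. The others turned: Slc1a3 stood at 0.32 and -0.35, Tf at -0.28 and 0.27, and Enpp2 at -0.25 and 0.31. Over all 63, the median size of the difference was 0.11 in the accumbens and 0.50 in the lateral hypothalamus, where they had been chosen for it. Cck, the peptide cholecystokinin, differed by -0.47 ± 0.45 in the accumbens and by -1.41 ± 0.29 in the lateral hypothalamus, and Kcnj10, a potassium channel of glia, by 0.31 ± 0.15 and 1.33. For Cacna1a, a P/Q-type calcium channel, the values were -0.11 and -1.34, and for the postsynaptic adhesion protein Nlgn3 -0.15 and 1.25. The accumbens signs of Cck, Cacna1a and Nlgn3 turned under at least 1 alternative setting.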

How the data were processed

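The values the authors deposited are linear signal intensities, 1 per probe set, of Affymetrix Rat Neurobiology U34 arrays, and MAS5 produced them, per the submitters' processing notes. Its version, scaling target and detection calls are not given in the sources used here. The labels' protocols state an input of 1 to 5 µg of total RNA for the biotin-labelled cRNA. The 2% trimmed mean of the deposited intensity lay between 250.8 and 251.3 on all 63 arrays, no 2 arrays held identical values, and 0 per-sample columns were left unused. Arrays have no counts or depths, and their number limits the precision.

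Of 1322 probe sets, 59 controls were left out of the tests. Of the 1263 others, 1137 had 1 gene symbol in the platform annotation, 8 had several and 118 had none, and 1132 were found in a RefSeq table, which changed 0 symbols. Of the 71 probe sets at an unadjusted p under 0.05, 9 had no single symbol and are not named. Arrays were rescaled to a 2% trimmed mean of 500, floored at 32 and converted to log2. Tests ran on probe sets whose mean log2 signal over the 12 accumbens arrays reached that of a signal of 100 (in fits of all regions, over the arrays of at least 1 region). The 3 access groups were fitted with limma 3.58.1 (R 4.3.3; lmFit, then eBayes with its variance trend on intensity), p-values were adjusted by Benjamini-Hochberg within a contrast, and the threshold was 0.05. The test against the other 5 regions used a single fit of the 63 arrays. Signals below 32 were set to that floor, which can understate fold changes near background. Measures of the arrays were compared by two-sided exact permutation tests, and the fit was tested on simulated data.

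The members and the gene lists were chosen with earlier results of these data known. Since none passed, named genes are the 8 of smallest p in each direction, each once by its probe set of smallest p, up to 4 members of smallest p in each list, the 5 of smallest p for the difference between regions, and Penk, Drd1, Drd2, Adora2a, Pdyn and Tac1 always. Lists use 1 probe set per gene, that of the highest mean. Fos, Mag and the genes read on short access array 3, Stx7 and Chrna7 were picked after their values were seen. Leaving out long access arrays 2 and 4 together, and counting list members without short access array 3, were alternatives chosen after seeing the data. The closing section gives the alternatives tried.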

Additional observations from a re-analysis of the deposited data

Results flagged for a closer look

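Among the named genes and the 9 measures of the arrays, a sample lay far from the other 3 of its group in 6 of 164 groups by Dixon's criterion (3.66%), and chance flags about 1 in 20. Gnb1 stood at 8.54 (log2 signal) on long access array 2, where the other long access arrays lay between 7.81 and 7.91. Cnr1, the cannabinoid CB1 receptor, stood at 5.96 on long access array 4, with the others between 7.19 and 7.25. On short access array 3 Drd1 stood at 7.84, with the others between 8.93 and 9.004, Mag, a myelin glycoprotein, at 9.82, with the others between 10.91 and 11.02, and Nmu at 7.68, with the others between 8.04 and 8.10. Ddc, the enzyme that makes dopamine and serotonin from their precursors, stood at 6.91 on short access array 4, with the others between 7.45 and 7.55. What set these values apart was not tested.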

How the results depend on the processing

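Across the alternatives to the long against short access test, 0 probe sets were called except in 5 settings. Without the filter on dim probe sets 2 were called, Stx7 and Chrna7, in a fit that holds probe sets at the floor on every array. With replicate number as a block, with all 63 arrays in 1 fit and with adjustment over 18 contrasts 1 was called in each, Gnb1, at limma adjusted p-values of 0.0191, 0.00177 and 0.00683. With each array left out in turn the count lay between 0 and 1, the 1 being Gnb1 without short access array 2 (limma adjusted p = 0.0304). Over all alternatives that tested it, the difference of Gnb1 lay between 0.93 and 1.26 and its limma adjusted p between 0.00177 and 0.934. It was not tested with the values as deposited, where the same minimum signal left 534 probe sets, with a minimum of 200, or when cross-hybridising probe sets were left out. Deviations of same-numbered long and short access arrays correlated at 0.093, 0.043, 0.0035 and 0.024. These values cannot exclude a link between same-numbered arrays, since they leave out no access and single genes can follow the numbers. For Igfbp2 and Slc1a2, arrays 2 and 4 lay on the same side of arrays 1 and 3 with short and with no access. With long access the Igfbp2 pairs were reversed, arrays 2 and 4 being the lower ones. The long access arrays did not share the split on the Slc1a2 probe set of smallest p. On its other probe set they did, at 8.10, 7.90, 8.25 and 7.92. With the block, 79 probe sets had an unadjusted limma p under 0.05.

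The count at an unadjusted p under 0.05 was 71. It was 28 with the actin difference as a covariate, which differs between the groups, 30 without cross-hybridising probe sets (389 tested), 42 without long access arrays 2 and 4, and 49 to 94 with each array left out in turn. Without short access array 3 the groups did not overlap for 21 probe sets that were higher and 25 that were lower with long access, and without long access arrays 2 and 4 for 51 and 65, where fewer arrays make this easier.

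For short against no access 2 were called without the filter and 0 to 1 with each array left out, the 1 being Mt2A without long access array 4 (limma adjusted p = 0.0376). For long against no access and for the difference between regions 0 were called in every alternative run. Of the named genes, 10 turned sign somewhere, none of them called in any setting. With the actin covariate the difference was 0.031 for Adora2a, -0.075 for Pdyn, 0.023 for Ddc, -0.024 for Syt3, -0.10 for Thra, 0.28 for Cck and 0.0021 for Cacna1a. Without long access arrays 2 and 4 it was -0.13 for Drd2, -0.060 for Pdyn, 0.62 for Igfbp2 and 0.38 for Cck. With array weights it was 0.023 for Adora2a. With single arrays left out it lay between -0.089 and 0.058 for Adora2a, -0.77 and 0.0076 for Cck, -0.27 and 0.016 for Nlgn3, and -0.018 and 0.22 for Pdyn. The cause was not tested.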

Other observations

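Igfbp2, an insulin-like growth factor binding protein, split the arrays of each group into pairs. Its probe set of smallest p had log2 signals of 9.29, 6.72, 9.09 and 6.86 on long access arrays 1 to 4, of 8.06, 9.16, 8.04 and 9.04 on the short access arrays and of 7.86, 9.65, 7.63 and 9.69 on the no access arrays. Arrays 2 and 4 were the lower pair with long access and the higher pair with short and no access. The difference between long and short access was -0.59 ± 0.62 (SE), and without long access arrays 2 and 4 it was 0.62. The second probe set showed the same pairs, with 9.41, 7.88, 8.98 and 8.42 with long access and 8.14, 9.41, 8.29 and 9.42 with short access.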
